A study of Mus musculus with 6 samples.

Results

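Spinal cord of mice without motor neuron disease was compared between 110 and 75 days of age on 4 of the 6 arrays of the series. The 4 arrays were chosen by their labels: nontransgenic mice (labelled NM, strain B6SJL) and WT-SOD1 transgenic mice, 1 array for each genotype and age. The WT-SOD1 mice carry wild-type SOD1 and are described as free of disease at both ages. Their strain label names B6SJL at 75 days, while the array at 110 days has no strain label. The remaining 2 arrays come from mice with the G93A mutant form of SOD1, presymptomatic at 75 days and with tremor and partial paralysis at 110 days, and serve here for reference. Each array received labelled RNA made from poly(A) RNA of 4 spinal cords and was hybridised once. Pooled cords give 1 value, so no genotype has a replicate at either age, and the 2 genotypes of an age stand in for each other. The promoter and copy number of the transgenes and the sex of the mice are not given in the sources used here.

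Ages of 75 and 110 days both fall in adult life of the mouse, after myelination of the cord is largely complete. Chaperones fold new and damaged proteins, in the cytosol, the mitochondria and the endoplasmic reticulum, and motor neurons are known for a weak induction of them. Heat shock factor 1 drives chaperone genes through heat shock elements, inverted repeats of a short motif, and the glucocorticoid receptor drives its targets through a longer palindromic element.

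Values are intensities of probe sets on a linear scale, and differences are log2 of the value at 110 days over that at 75 days, after values under 31 had been raised to 31. Of the 6737 probe sets bright enough to test, 1 passed a Benjamini-Hochberg adjusted p of 0.05 in limma as higher at 110 days, which is 0.0148%. Lower calls numbered 0, or 0%. At an unadjusted p under 0.05 there were 172 probe sets higher and 37 lower. Together they are a smaller share of the 6737 than the 0.05 that this threshold admits when no probe set differs. With genotype as a term beside age, which pairs the ages within a genotype on 1 residual degree of freedom and with 1 pooled spread for all probe sets, 7 were called higher and 8 lower. The 7 were Hspa1b, Zbtb16, Sgk1, Hspa1a, Hspa5, 1 probe set without a single gene symbol and a probe set of Gabra6. That of Gabra6 had opposite signs in nontransgenic and WT-SOD1 cord, -1.76 and 3.26. The 8 lower were probe sets of Gh, Prl, Pomc, Acta1, Myl1 and Erdr1, and 2 of Cga. By size, 8 probe sets (0.119%) were at least 1.5-fold higher in both genotypes and 1 (0.0148%) at least 1.5-fold lower. Both arrays of 110 days lay above both of 75 days at 1026 probe sets (15.2%) and below both at 944 (14.0%), so ages that do not overlap are common and are given below as a description. Genes named as highest or lowest were picked by their differences on these same arrays, which favours such a gap. The counts by size have no test, and single arrays weigh on them. In the step below both differences share an array, and so they tend to agree in sign. Leaving out 1 array, with the other array of its age in its place, gave 15 higher without the nontransgenic array of 75 days, 13 without that of 110 days and 63 without the WT-SOD1 array of 110 days. The same step gave 2 to 8 probe sets lower: 8 without the nontransgenic array of 75 days, 4 without the WT-SOD1 array of 75 days, 4 without the nontransgenic array of 110 days and 2 without the WT-SOD1 array of 110 days.

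Most probe sets moved in opposite directions in the 2 genotypes. Of the tested probe sets, 2634 (39.1%) had the same sign in both genotypes and 4099 (60.8%) opposite signs. Across probe sets, the nontransgenic and WT-SOD1 differences had a Pearson r of -0.22, with no array in common. The half-difference between the genotypes had an SD of 0.19 over probe sets, above the SD of 0.15 of their mean. The nontransgenic array of 75 days and the WT-SOD1 array of 110 days had the highest mean levels of bacterial spike-in controls, 1198 and 1590, against 645 to 850 on the other arrays. These arrays lie at opposite ages of the 2 genotypes, so their shared features enter the difference in one genotype with the opposite sign to that in the other. What part this has in the opposite signs was not tested.

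**Figure D1:**
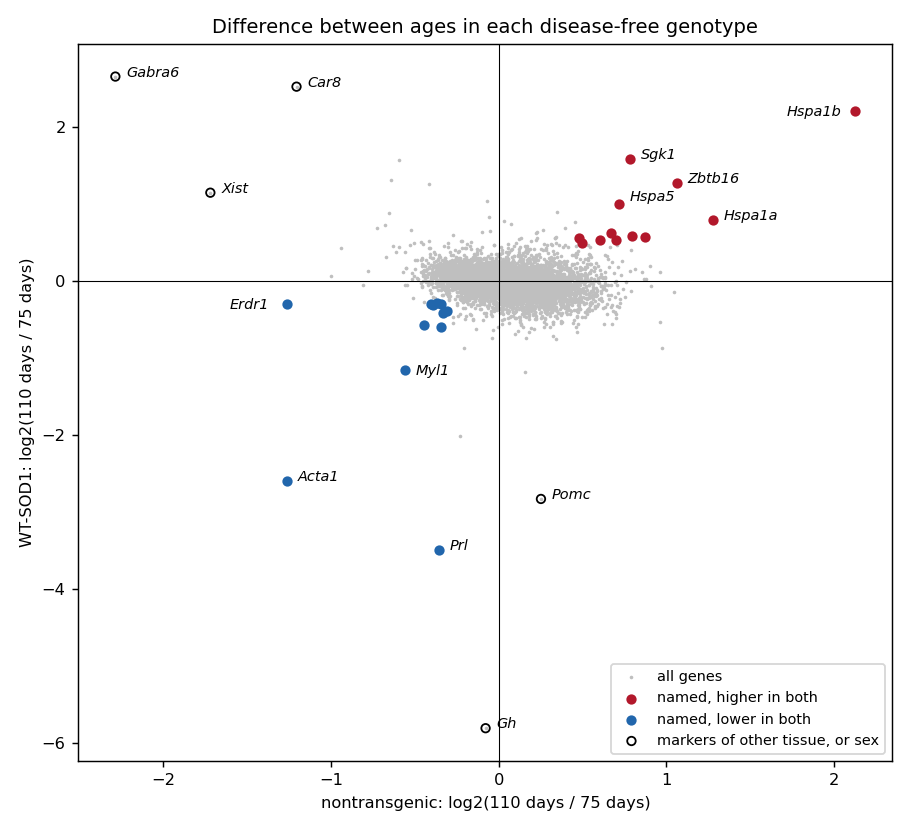
Log2 difference between 110 and 75 days in nontransgenic cord (horizontal axis) against that in WT-SOD1 cord (vertical axis), 1 point for each of 5201 genes. Red and blue points are the 12 genes named as highest and lowest in both genotypes, open circles mark genes of pituitary and cerebellum and Xist, and Hspa1b stands apart at 2.13 and 2.21.

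Hspa1b, an inducible 70-kilodalton heat shock protein, was the only gene called by the limma test, with higher values at 110 than at 75 days. Its intensity was 64.7 in nontransgenic and 54.4 in WT-SOD1 cord at 75 days, and 282 and 252 at 110 days. Both arrays of 110 days lay above both arrays of 75 days by a wide gap, and the genotypes gave nearly the same difference, 2.13 and 2.21 on the log2 scale. The mean difference was 2.17 ± 0.13 (SE of the limma fit, 2 arrays per age), or 4.50-fold, with an adjusted p of 0.00409. It stayed at 2.04 or more with any 1 array left out. The call was lost, at an adjusted p of 0.614, when dim probe sets were kept in the fit. In G93A-SOD1 cord the order was turned, with 137 at 75 days and 56.4 at 110 days, a difference of -1.28. The G93A-SOD1 difference minus the disease-free difference was -3.45 ± 0.23 (SE), with an adjusted p of 0.00668. G93A-SOD1 cord has 1 array per age, so this SE and p take their spread wholly from the disease-free arrays and assume that the G93A-SOD1 arrays vary like them.

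Hspa1a encodes an almost identical protein, and probes for one gene of the pair may also bind transcripts of the other, so their values are not independent. Hspa1a read 121 and 127 at 75 days in nontransgenic and WT-SOD1 cord, and 293 and 222 at 110 days. The arrays of the 2 ages did not overlap, at 2.42-fold and 1.74-fold, but the adjusted p was 0.367. In G93A-SOD1 cord the probe set read 199 at 75 days and 136 at 110 days.

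The promoters of these neighbouring genes are shown because they carry the same heat shock element at the same place. The 250 bases before each start on chromosome 17 (RefSeq, build GRCm38.p6, minus strand, shown 5′ to 3′) differ at 3 positions and match at 247. Capitals mark a pair of heat shock element units facing each other, GAANNTTC, where N is any base, starting at position -104 from the start of the gene in both:
Hspa1b, chr17:34959239-34959488: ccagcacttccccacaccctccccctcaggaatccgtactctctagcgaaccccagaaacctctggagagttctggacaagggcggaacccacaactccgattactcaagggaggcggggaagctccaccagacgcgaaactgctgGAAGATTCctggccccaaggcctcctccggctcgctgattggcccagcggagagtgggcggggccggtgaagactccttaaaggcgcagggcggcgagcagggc
Hspa1a, chr17:34972157-34972406: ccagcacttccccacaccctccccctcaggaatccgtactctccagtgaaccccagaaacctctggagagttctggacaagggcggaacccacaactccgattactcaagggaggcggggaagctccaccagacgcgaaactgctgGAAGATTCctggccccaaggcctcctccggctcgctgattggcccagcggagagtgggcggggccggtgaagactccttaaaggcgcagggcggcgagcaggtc

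This pair, searched on both strands, stood in 2199 (6.69%) of the 32851 promoter windows of that length, which belong to 27025 genes. Among the 12 genes named as highest at 110 days, 10 had a window. Of these, 4 held the pair in at least 1 window: Hspa1b, Hspa1a, Sgk1 and Hnrnpa2b1. Counted by gene, the share over all genes was 7.73%. Sgk1 has 6 windows and Hnrnpa2b1 has 2, and those of Hspa1a and Hspa1b are near copies, so the 4 are not independent matches. Of the 12 genes named as lowest, 9 had a window and 0 held it. Of the heat shock and chaperone genes measured, 21 had a window and 8 held the pair, against 7.73% of all genes with at least 1 window. A match is a run of letters and not a measured binding site.

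Most measured heat shock and chaperone genes lay higher at 110 days in both genotypes. This list, like the others, was chosen with earlier results of these data known. Of 30 genes on the list, 26 were measured, 22 were higher in both genotypes and 0 lower in both. Over all 5201 genes, 1043 (20.1%) were higher in both and 962 (18.5%) lower in both. The list's median difference was 0.32 in nontransgenic and 0.21 in WT-SOD1 cord, against 0.03 and -0.02 over all genes, and -0.03 in G93A-SOD1 cord against 0.01. The count ran from 22 to 26 with any 1 array left out. In that step both differences share an array, and so they tend to agree in sign. The count was 25 when arrays of like spike-in level were compared with each other. Only Hspa1b of the list passed the test.

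The members ran over several chaperone classes. Dnajb1, a J-domain co-chaperone of Hsp70, read 124 and 122 in nontransgenic and WT-SOD1 cord at 75 days and 189 and 176 at 110 days, with no overlap between ages. Hsph1, a nucleotide exchange factor of Hsp70, read 839 and 871 at 75 days and 1318 and 1064 at 110 days. Hspa8, the constitutive Hsp70, read 695 and 688 at 75 days and 879 and 1025 at 110 days. For all 3 the arrays of 110 days lay above those of 75 days, while G93A-SOD1 cord went from 138 to 115, from 885 to 778 and from 745 to 668. Hsp90aa1, an inducible cytosolic Hsp90, read 2695 and 2341 at 75 days and 3420 and 3298 at 110 days. The mitochondrial chaperonin genes were higher too: Hspe1 went from 318 to 438 in nontransgenic and from 340 to 464 in WT-SOD1 cord. Hspd1 went from 884 to 1035 and from 845 to 1072. Subunits of the cytosolic chaperonin differed less, from Cct2 (0.36 and 0.10 on the log2 scale) down to Cct3 (0.01 and -0.01). The 4 members without the same sign were Hspa9, Hspb8, Cct3 and Bag3, each above 0 in nontransgenic and under 0 in WT-SOD1 cord.

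**Figure D2:**
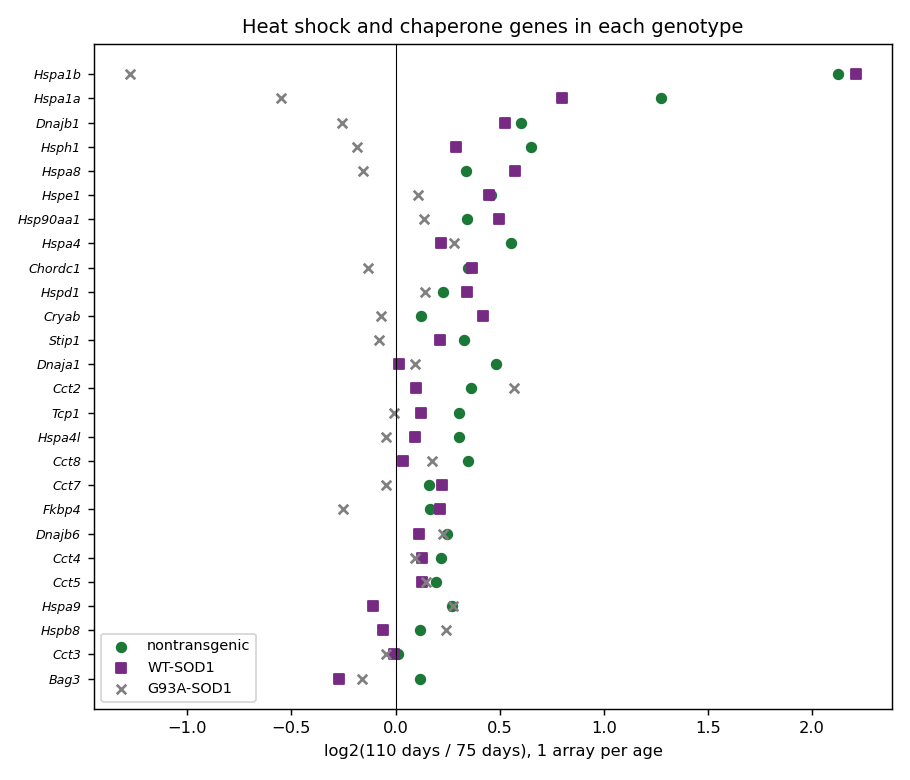
Log2 difference between 110 and 75 days for the 26 measured heat shock and chaperone genes, 1 row per gene, in nontransgenic cord (circles), WT-SOD1 cord (squares) and G93A-SOD1 cord (crosses), each from 1 array per age. In 22 genes both disease-free symbols lie right of 0, while 12 of the 26 crosses do.

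Zbtb16, a zinc finger repressor known as a target of glucocorticoids, came second by the smaller of its 2 differences. It read 151 and 150 in nontransgenic and WT-SOD1 cord at 75 days and 314 and 361 at 110 days. The ages did not overlap, and the mean difference was 1.16 ± 0.12 (SE), or 2.24-fold, with an adjusted p of 0.0703. That p lay under the threshold with any 1 of the 4 arrays left out, at most 0.028, each such fit assuming that the lone array varies like the pair of the other age. It was 0.284 with the floor at the 40th percentile, 0.140 with arrays scaled to one median, 0.115 after quantile normalization and 0.685 without the filter on level, and between 0.057 and 0.0602 with the other filter and pseudocount tried. In G93A-SOD1 cord the gene read 233 at 75 days and 173 at 110 days, and the change of the difference, -1.59 ± 0.20 (SE), had an adjusted p of 0.0376, again with the spread of the disease-free arrays only. The probe set is of a type that can bind related transcripts. The other Zbtb16 probe set, too dim to test, read 64.3 and 68.0 at 75 days and 63.7 and 73.7 at 110 days and did not show the difference.

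Sgk1, a kinase that glucocorticoids induce and that acts on ion channels and transporters, read 331 and 222 at 75 days and 568 and 669 at 110 days. Both arrays of 110 days exceeded both of 75 days, at 1.72-fold in nontransgenic and 3.01-fold in WT-SOD1 cord, with an adjusted p of 0.637. G93A-SOD1 cord, at 414 and 437, lay between the ages of disease-free cord. One of the 6 Sgk1 windows in the RefSeq table is shown because it holds the whole palindrome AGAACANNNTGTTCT of the glucocorticoid receptor, in capitals, starting at position -189 and overlapping a GAANNTTC match. It lies on chromosome 10, plus strand, in the same build:
Sgk1, chr10:21993640-21993889: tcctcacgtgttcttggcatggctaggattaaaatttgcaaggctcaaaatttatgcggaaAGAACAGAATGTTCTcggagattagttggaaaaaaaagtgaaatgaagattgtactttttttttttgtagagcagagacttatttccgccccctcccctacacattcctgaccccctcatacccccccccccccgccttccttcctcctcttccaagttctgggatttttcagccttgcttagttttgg

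That palindrome stood in 3 of the 32851 windows (0.00913%). It was searched for after the window had been seen, so its presence in Sgk1 is a description. The other motifs searched on both strands were the E-box CACGTG, the D-box TTATGTAA and the CRE TGACGTCA. The E-box stood in 6.02% of windows and 6.86% of genes, and in 1 of the 10 higher genes, Sgk1, which has 6 windows. The D-box stood in 0.819% of windows and the CRE in 1.55%, with 0 of the 10 higher genes for both.

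Of the 19 measured glucocorticoid-responsive genes, 11 were higher at 110 days in both genotypes and 0 lower in both. Over all genes the shares were 20.1% and 18.5%. Their median difference was 0.05 in nontransgenic and 0.33 in WT-SOD1 cord. All but 1 of the 19 lay above 0 in WT-SOD1 cord, and 12 did in nontransgenic cord. Fkbp5, a co-chaperone of steroid receptors, read 127 and 147 at 75 days and 149 and 217 at 110 days, so the ages did not overlap although the nearest arrays were close. Mt1, a metallothionein, read 1881 and 1580 at 75 days but 1789 and 3249 at 110 days, high on the WT-SOD1 array of 110 days alone among the disease-free arrays. Mt2 had the same pattern, with 1683 and 1643 at 75 days and 1618 and 2915 at 110 days. The count of genes higher in both rested on this array: it was 7 without it and 18 without the nontransgenic array of 110 days.

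**Figure D3:**
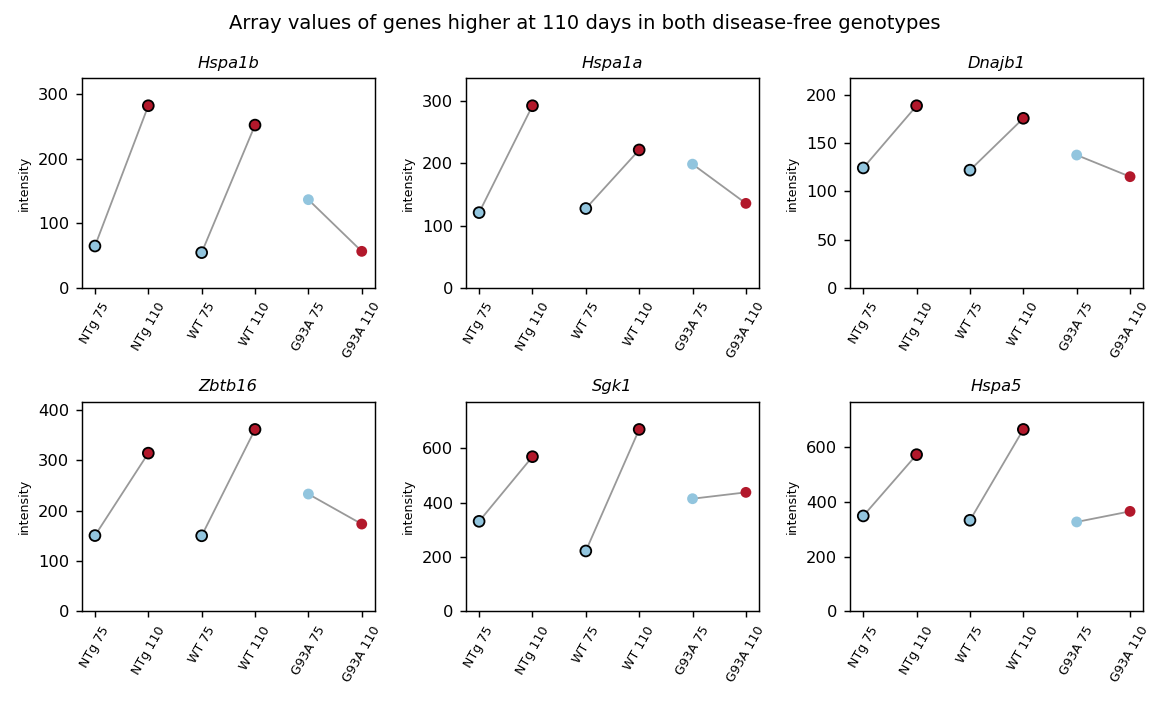
Intensity (linear axis from 0) of 6 genes on each of the 6 arrays: nontransgenic (NTg), WT-SOD1 (WT) and G93A-SOD1 (G93A) cord at 75 days (blue) and 110 days (red), with lines joining the ages of a genotype and black rims on disease-free arrays. In every panel both disease-free arrays of 110 days lie above both of 75 days, while Hspa1b, Hspa1a, Dnajb1 and Zbtb16 are lower at 110 days in G93A-SOD1 cord. All 6 were picked for their differences on these disease-free arrays, which favours a gap between ages.

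Genes of endoplasmic reticulum folding and stress were a further list. Hspa5, the Hsp70 of that compartment and a standard marker of its stress response, read 349 and 333 in nontransgenic and WT-SOD1 cord at 75 days and 573 and 666 at 110 days. The ages did not overlap, at 1.64-fold and 2.0-fold, and the adjusted p was 0.367. Pdia3, a disulfide isomerase of the same compartment, read 142 and 129 at 75 days and 226 and 200 at 110 days. Pdia3 was higher at the later age in G93A-SOD1 cord as well, at 117 and 186, whereas Hspa5 stayed near its level of disease-free cord at 75 days, at 327 and 366. Xbp1, a transcription factor of the unfolded protein response, read 141 and 127 at 75 days and 179 and 236 at 110 days. Manf, a secreted protein of the same response, read 134 and 139 at 75 days and 161 and 220 at 110 days. Of the 15 measured genes of the list, 8 were higher in both genotypes and 1, the lectin chaperone Canx, lower in both. The rest did not share a sign. Over all genes, 20.1% were higher in both and 18.5% lower in both. The median differences were 0.22 and 0.17, against 0.03 and -0.02 over all genes, and 0 members passed the test.

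The other genes named as highest at 110 days were of mixed function. Slc38a2, a transporter of neutral amino acids, read 268 and 264 at 75 days and 465 and 397 at 110 days, and in G93A-SOD1 cord 239 and 240. Smarca2, an ATPase of a chromatin remodelling complex, read 166 and 154 at 75 days and 303 and 229 at 110 days. Wdr92 read 725 and 842 at 75 days and 1177 and 1214 at 110 days. Ages did not overlap for any of the 3, which their choice by size favours. Hnrnpa2b1, an RNA-binding protein, read 596 and 517 at 75 days and 831 and 763 at 110 days. Ddx6, an RNA helicase of processing bodies, read 272 and 235 at 75 days and 383 and 331 at 110 days, but its other 2 tested probe sets had opposite signs in the genotypes, -0.89 with 0.59 and -0.56 with 0.31. Across the 12 named genes, the adjusted p ran from that of Hspa1b up to 0.998. The smaller of their 2 differences was at least 0.48. In G93A-SOD1 cord 8 of the 12 were above 0, with Slc38a2 at only 0.001. The share above 0 there was 51.2% of all genes and 64.0% of the genes higher in both disease-free genotypes.

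Respiratory chain, ribosomal and splicing lists also had shares of genes higher in both above the 20.1% of all genes, and for the respiratory chain and ribosomal lists these depended on the scaling of the arrays. Of 46 measured genes of oxidative phosphorylation, 23 were higher and 3 lower in both, but 12 were higher after quantile normalization. Their medians were 0.11 and 0.08. Cox7b, a subunit of cytochrome c oxidase, read 512 and 509 at 75 days and 732 and 623 at 110 days, while in G93A-SOD1 cord it went from 413 to 578. Cytosolic ribosomal protein genes were higher in 15 of 24 and lower in 2, yet higher in 3 of 24 after quantile normalization. Splicing factors and RNA-binding proteins were higher in 15 of 31 and lower in 3, with 23 higher when the WT-SOD1 array of 110 days was left out.

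Glial lists had smaller differences than in G93A-SOD1 cord. Microglia and macrophage genes were higher in both genotypes in 10 of 20 and lower in 1, with medians of 0.17 and 0.15 against 1.66 in G93A-SOD1 cord. Among all genes 20.1% were higher in both and 18.5% lower in both. C1qb, a chain of complement C1q made by microglia, read 127 and 132 at 75 days and 200 and 180 at 110 days, and in G93A-SOD1 cord 169 and 973. Another C1qb probe set was lower at 110 days in both genotypes, 74.3 and 85.8 against 59.5 and 69.6, so the gene has no settled direction here. Tyrobp, a microglial signalling adaptor, read 115 and 119 at 75 days and 140 and 164 at 110 days. Ctss, a lysosomal protease of microglia, read 419 and 508 at 75 days and 575 and 652 at 110 days. Neither overlapped between ages, and neither passed the test. Astrocyte genes were higher in 6 of 18 and lower in 2, reactive astrocyte genes higher in 6 of 15 and lower in 2, and complement genes higher in 4 of 9 and lower in 3.

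Myelin genes were higher in both genotypes in 2 of 14 and lower in 5, where all genes had shares of 20.1% higher and 18.5% lower. Mbp, a main protein of compact myelin, read 3665 and 3670 at 75 days and 4304 and 4098 at 110 days. Ugt8a, which makes the myelin lipid galactosylceramide, was lower, at 337 and 341 against 276 and 266, and Gjb1, a gap junction protein of oligodendrocytes, read 230 and 246 against 194 and 197. Neither the higher nor the lower members passed the test, and 10 were lower without the nontransgenic array of either age. Oligodendrocyte precursor genes were higher in 2 of 13 and lower in 3, and cholesterol and lipid synthesis genes higher in 3 of 23 and lower in 9. Without the nontransgenic array of 110 days, the sterol synthesis list had 18 lower, and without the WT-SOD1 array of that age 10 higher and 8 lower.

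Most neuronal lists lay near the shares of all genes, 20.1% higher and 18.5% lower in both. Genes of neuron and synapse were higher in 4 of 24 and lower in 3, those of neurofilament and axonal kinesin higher in 3 of 12 and lower in 1, those of motor neurons higher in 1 of 6 and lower in 1. Inhibitory transmission had 3 of 13 higher and 2 lower, and glutamate receptors and transporters 0 of 8 higher and 1 lower. Voltage-gated ion channels were lower in both in 7 of 13 and higher in 3. Hcn2, a pacemaker channel subunit, read 1399 and 1338 at 75 days and 1118 and 1247 at 110 days, with no overlap. Kcnab1, an auxiliary subunit of potassium channels, went the other way, from 195 and 186 to 256 and 219. Clock genes were split, with 3 of 13 higher and 3 lower. Dbp, an output gene of the clock, read 118 and 93.1 at 75 days and 93.2 and 82.2 at 110 days, so the ages overlapped slightly. Immediate early genes were higher in 2 of 16 and lower in 4, and Fos, of that list, had opposite signs, 76.7 to 150 in nontransgenic and 118 to 81.5 in WT-SOD1 cord.

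Cell cycle genes were higher in 2 of 23 and lower in 8, against 20.1% and 18.5% of all genes. They were higher in 9 without the nontransgenic array of 110 days and lower in 15 without the WT-SOD1 array of that age. Cdkn1c, an inhibitor of cyclin-dependent kinases, read 139 and 143 at 75 days and 109 and 94.7 at 110 days, with no overlap and an adjusted p of 0.998. MHC and interferon genes were higher in 2 of 17 and lower in 6, and lower in 3 to 10 with 1 array left out. Of the other lists, collagen and matrix genes were higher in 4 of 23 and lower in 2, and metallothionein, iron and antioxidant genes higher in 8 of 28 and lower in 2. Sod1, the gene whose human mutants cause familial amyotrophic lateral sclerosis, is on the last of these lists. It read 1037 and 1583 in nontransgenic and WT-SOD1 cord at 75 days and 1498 and 1906 at 110 days. WT-SOD1 was above nontransgenic at each age, but WT-SOD1 cord of 75 days exceeded nontransgenic cord of 110 days, and the age difference, 0.40 ± 0.21 (SE), had an adjusted p of 0.998. Whether the probes also bind transcripts of the transgene was not tested.

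**Figure D4:**
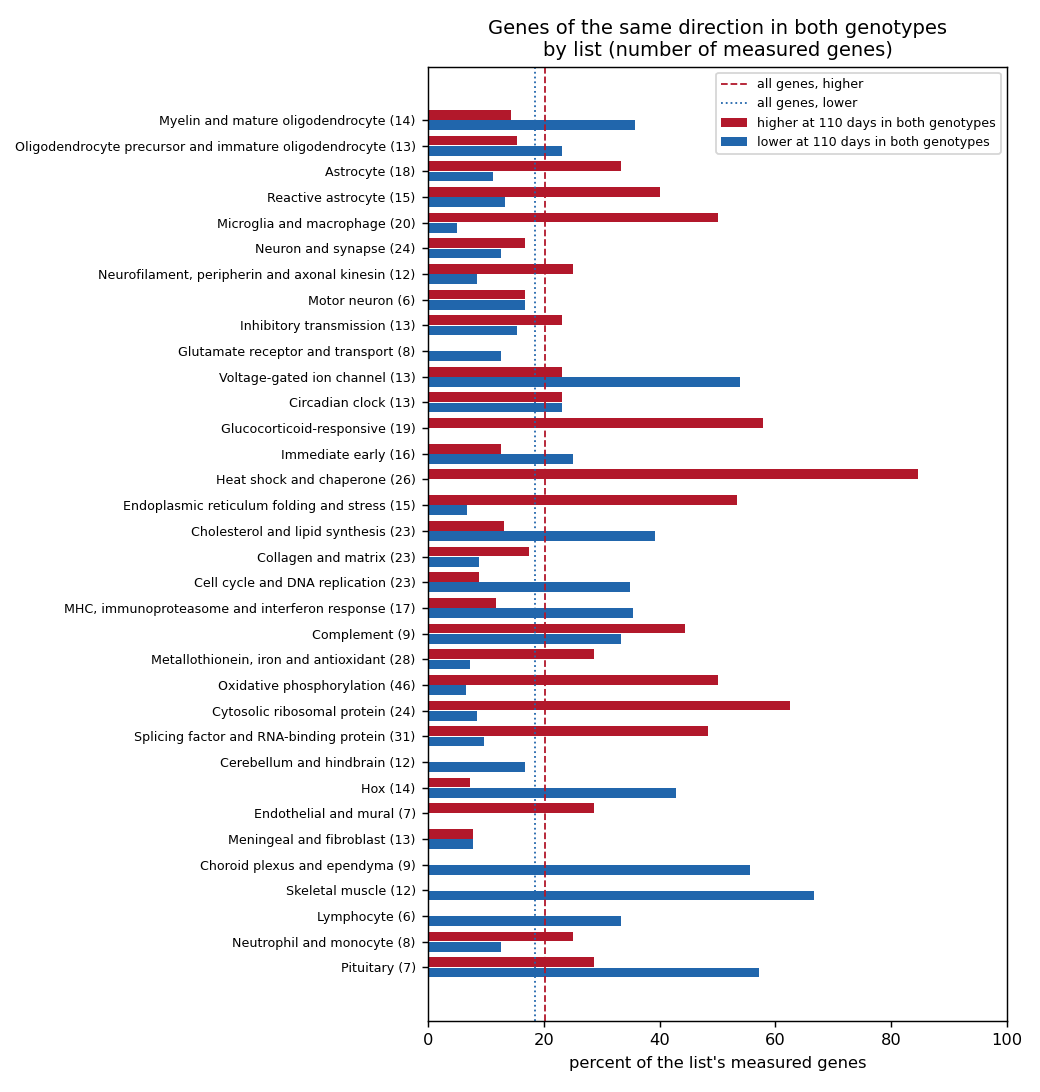
Percent of the measured genes of each list (number in brackets, lists of 6 or more) that were higher (red) or lower (blue) at 110 days in both disease-free genotypes. Vertical lines give the same shares over all 5201 genes, 20.1% and 18.5%, and heat shock and chaperone genes reach the highest share, 22 of 26. The lists were chosen with earlier results of these data known.

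The genes lowest at 110 days included several of skeletal muscle. Acta1, skeletal muscle alpha-actin, read 126 and 448 in nontransgenic and WT-SOD1 cord at 75 days and 52.5 and 74.1 at 110 days. Myl1, a myosin light chain of fast muscle, read 80.1 and 147 at 75 days and 54.4 and 66.3 at 110 days. Both were lower at 110 days in both genotypes, with the largest value on the WT-SOD1 array of 75 days. In G93A-SOD1 cord both were higher at 110 days, Acta1 at 89.0 and 170, Myl1 at 67.2 and 80.3. Atp2a1, the calcium pump of fast muscle, read 184 and 258 against 135 and 173. Tnnc2, a fast troponin C, read 172 and 193 against 139 and 148. Acta1 was the 1 probe set at least 1.5-fold lower in both genotypes, at a mean difference of -1.93 ± 0.51 (SE) and an adjusted p of 0.998. The difference was -1.02 without the WT-SOD1 array of 75 days. Of 12 measured muscle genes, 8 were lower in both and 0 higher, against 18.5% and 20.1% of all genes. Their summed intensity was 4551 and 5136 at 75 days against 4025 and 4422 at 110 days. Muscle fibres are no part of the cord.

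Markers of other tissues moved with single arrays. The pituitary hormone genes were high on the WT-SOD1 array of 75 days alone. Gh, growth hormone, read 8572 there and 151 to 169 on the other 5 arrays, and Prl, prolactin, read 1157 there and 90.6 to 129 elsewhere. Pomc read 1060 there and 135 to 167 elsewhere. Prl was named among the genes lowest in both because nontransgenic cord also went from 116 to 90.6, but the size in WT-SOD1 cord rests on this array. Of 7 measured pituitary genes, 4 were lower and 2 higher in both, against 18.5% and 20.1% of all genes. Their summed intensity was 13676 on that array and 2858 to 3694 on the others. Acta1 and Myl1 were highest on the same array, and whether the pools differed in dissected tissue was not tested.

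Cerebellar genes had opposite signs in the genotypes. Gabra6, a receptor subunit of cerebellar granule cells, read 306 in nontransgenic cord and 51.8 in WT-SOD1 cord at 75 days, and 62.7 and 327 at 110 days. Car8, a gene of Purkinje cells, read 182 and 57.7 at 75 days and 78.9 and 332 at 110 days. Both were high on the same arrays that had high spike-in levels. Of 12 measured cerebellar and hindbrain genes, 0 were higher in both and 2 lower, against 20.1% and 18.5% of all genes. In nontransgenic cord 0 of them lay above 0 and in WT-SOD1 cord 10 did, with medians of -0.45 and 0.58. Their summed intensity was 6665 and 5093 at 75 days and 5217 and 7056 at 110 days. Xist, the RNA of the inactive X chromosome in females, was high on the same disease-free arrays, but highest on the nontransgenic array of 75 days. It read 102 and 18.6 at 75 days and 19.6 and 68.7 at 110 days.

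**Figure D5:**
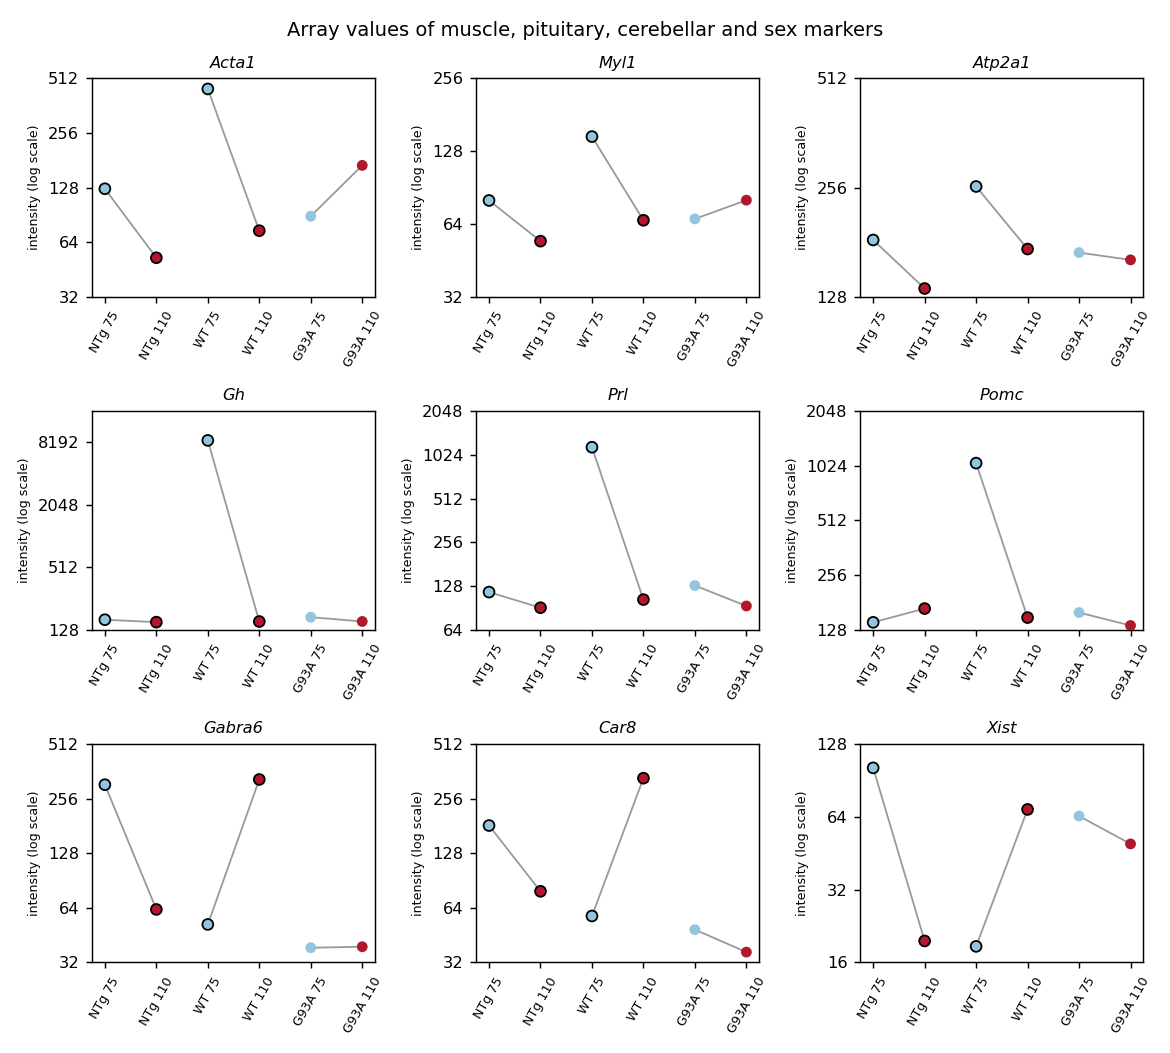
Intensity (log axis) of muscle genes (Acta1, Myl1, Atp2a1), pituitary hormone genes (Gh, Prl, Pomc), cerebellar genes (Gabra6, Car8) and Xist on each of the 6 arrays, with ages in blue (75 days) and red (110 days). The pituitary genes are high on the WT-SOD1 array of 75 days alone, and Gabra6 and Car8 on the nontransgenic array of 75 days and the WT-SOD1 array of 110 days. Xist is high on these arrays among the disease-free ones and reads 64.5 and 49.5 on the G93A-SOD1 arrays.

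Hspa1b was high on both arrays of 110 days, of which 1 had high and 1 low levels of spike-in, cerebellar genes and Xist. When arrays of like spike-in level were compared, Hspa1b differed by 1.96 between the pair with high levels and by 2.37 between the pair with low levels. A further fit had a term setting the nontransgenic array of 75 days and the WT-SOD1 array of 110 days apart from the others. There 6 probe sets were called higher: Hspa1b, Zbtb16, Sgk1, Hspa1a, Hspa5 and 1 probe set without a single gene symbol. The term marks these arrays and holds no measured level, and it left 1 residual degree of freedom. It also takes up any disagreement between the genotypes, so these calls cannot tell what part spike-in level has. The nontransgenic array of 110 days had the highest ratio of 3′ to 5′ signal for actin, 2.39 against 1.69 to 2.0 (a ratio read as RNA quality), and its part in that genotype's differences was not tested.

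Of the remaining lists of other tissues, choroid plexus and ependyma genes were lower in both genotypes in 5 of 9 and higher in 0. All genes gave 18.5% lower and 20.1% higher, and several of the small lists below lie near these shares. Ttr, a thyroid hormone carrier made by choroid plexus, read 136 and 162 at 75 days and 104 and 131 at 110 days. Hox genes, which mark the cord's position along the body axis, were higher in 1 of 14 and lower in 6, with medians of -0.09 and -0.05, and lower in 10 without the WT-SOD1 array of 110 days. Hoxc8 read 154 and 160 at 75 days and 127 and 147 at 110 days. Endothelial genes were higher in 2 of 7 and lower in 0, meningeal genes higher in 1 of 13 and lower in 1, blood genes higher in 1 of 3 and lower in 0. Schwann cell genes were higher in 1 of 4 and sensory ganglion genes in 1 of 5, with 0 lower in either. Fat genes were lower in 1 of 3 and lymphocyte genes in 2 of 6, with 0 higher. Neutrophil and monocyte genes were higher in 2 of 8 and lower in 1. For genes in bulk cord RNA, fewer cells of a type and less RNA per cell cannot be told apart.

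The remaining genes named as lowest differed modestly. Pcnt, a scaffold of the centrosome, read 101 and 118 at 75 days and 80.1 and 88.4 at 110 days. Fcho1, which acts in clathrin-mediated endocytosis, read 135 and 123 against 106 and 99.98. Leng8 read 122 and 122 against 95.0 and 100.11, and Ocel1 98.8 and 92.3 against 74.7 and 74.8. Ages did not overlap for these 4 genes, which their choice by size favours. Erdr1 read 1419 and 864 at 75 days and 593 and 705 at 110 days, high on the nontransgenic array of 75 days. The mean difference of all 12 genes named as lowest kept its sign under each scaling tried. These genes were picked for the size of their differences, so rescaling arrays of similar medians could hardly turn a sign. In G93A-SOD1 cord 7 of the 12 were also under 0, against 48.7% of all genes and 59.7% of the genes lower in both.

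The age difference of disease-free cord was set against that of G93A-SOD1 cord in the same fit. The G93A-SOD1 arrays, 1 per age, add no estimate of variation, so the test rests on the spread between the disease-free genotypes. The difference departed at 28 probe sets (0.416% of those tested), with 26 higher in G93A-SOD1 cord and 2 lower. The 2 lower ones were Hspa1b and Zbtb16. Among the 26 were genes of the microglial list, such as Tyrobp (2.08 ± 0.21, SE) and C1qb (1.97 ± 0.20, SE), both with an adjusted p of 0.0214, although the other C1qb probe set was lower at 110 days in G93A-SOD1 cord too, at 115 and 80.4. Of the 1043 genes higher at 110 days in both disease-free genotypes, 64.0% were also higher in G93A-SOD1 cord, where 51.2% of all genes were. Of the 962 genes lower in both, 59.7% were also lower there, against 48.7% of all genes.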

How the data were processed

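Spinal cord poly(A) RNA was measured on 6 Affymetrix arrays, of which 4 are disease-free. Per the labels' protocols, RNA was extracted with Trizol from 4 cords per array and purified with Oligotex. The deposited values are linear intensity values, 1 per probe set and array, and the summarisation and scaling behind them are not given in the sources used here. Precision is limited by the number of arrays.

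Of 12488 rows, 66 control probe sets were left out. Values under the 25th percentile (31) were raised to it, and probe sets above the pooled median of 79.7 on 1 array or more entered the test (6737, with 5201 genes). Array medians ranged from 77.7 to 80.9. Of 12422 probe sets, 10833 had 1 gene symbol, 396 several and 1193 none. The platform annotation was matched through Entrez identifiers to RefSeq (GRCm38.p6) for 10817. The brightest probe set stood for its gene. limma 3.58.1 in R 4.3.3 (lmFit, eBayes) fitted 4 means, disease-free and G93A-SOD1 at each age, with 2 residual degrees of freedom and Benjamini-Hochberg adjustment. P-values measure the spread between pools of different genotype, not between animals. The fit was tested on simulated data with spread drawn independently for each array. Those data lack the features that arrays share here, so the simulation cannot show how the fit behaves with them.

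There were 39 gene lists. Members and lists were chosen with earlier results of these data known. Named genes were Sod1, the 12 genes in each direction with the largest smaller difference, calls, and up to 3 members per list, plus for other tissues the 2 with the most opposite differences. Hsph1, Hspa8, Hsp90aa1, Hspe1, Hspd1, Cct2, Cct3, Hspa9, Hspb8, Bag3, Fkbp5, Mt1, Mt2, Manf, Canx, Hcn2, Fos and Gh were picked after their values were seen. Alternatives covered the floor, scaling, filter, fit, fold, and each array left out.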

Additional observations from a re-analysis of the deposited data

Results flagged for a closer look

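In 5 named genes the age difference of G93A-SOD1 cord departed from that of disease-free cord by the limma test of the difference itself, whose spread comes from the disease-free arrays alone because G93A-SOD1 cord has 1 array per age. It was lower in G93A-SOD1 cord for Hspa1b, by -3.445 on the log2 scale (adjusted p 0.00668), and for Zbtb16, by -1.59 (adjusted p 0.0376). It was higher for the microglial genes C1qb, by 1.971, Tyrobp, by 2.078, and C1qc, by 1.864, each with an adjusted p of 0.0214. The other C1qb probe set was lower at 110 days in G93A-SOD1 cord, at 115 and 80.4. Hspa1b on the G93A-SOD1 arrays started above and ended within the range of disease-free cord of 75 days.

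In 3 named genes nontransgenic and WT-SOD1 cord moved in opposite directions by a large amount, a contrast that was not tested because the spread between these arrays is what the fit uses as its error. Gabra6 differed by -2.284 in nontransgenic and 2.655 in WT-SOD1 cord, Car8 by -1.205 and 2.524, and Xist by -1.718 and 1.147.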

How the results depend on the processing

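The count of probe sets called higher, 1 as reported, was 0 without the filter on level, where Hspa1b had an adjusted p of 0.614. It was 7 with age and genotype terms and 6 with age and a term marking the 2 arrays of high spike-in level. Probe sets called lower, 0 as reported, numbered 8 with age and genotype terms. Those 8 were Gh, Prl, Pomc, Acta1, Myl1, Erdr1 and 2 probe sets of Cga, and the 7 higher were Hspa1b, Zbtb16, Sgk1, Hspa1a, Hspa5, a Gabra6 probe set and 1 without a single symbol. With each array left out in turn, 2 to 16 probe sets were called higher and 0 to 7 lower, with Hspa1b and Zbtb16 in all 4 such fits. Probe sets at least 1.5-fold higher in both genotypes, 8 as reported, numbered 5 with log2(value + 16) and 8 to 63 with each array left out. At least 1.3-fold higher were 29 and at least 2-fold higher 2. Probe sets lower, 1 as reported, numbered 3 at 1.3-fold and 2 to 8 with each array left out. Genes higher in both genotypes ranged from 7 to 18 for the glucocorticoid list and from 13 to 23 for the splicing list with each array left out. After quantile normalization 12 of oxidative phosphorylation and 3 of the ribosomal list were higher. The log2 difference of Tef was -0.0013 after quantile normalization, and that of Slc2a4 ran from -0.121 to 0.034 with each array left out. For single named genes, 1330 values kept their direction and their side of the threshold, 26 passed it, 1 no longer did and 3 turned. The spike-in term, the pairs of arrays of like spike-in level, and leaving out arrays for counts by size and lists were chosen after seeing the data. With an array left out of these counts, both differences share an array and tend to agree in sign. The cause of these shifts was not tested. The share of probe sets at or under the floor, 24.6% to 25.9% per array, limits what dim genes can show. The labels give no replicate numbers, and the fit with age and genotype terms is the one that pairs the ages within a genotype.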
